A study of Mus musculus with 8 samples.

Results

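From the 18990 genes of the deposited expression table, 9 genes of retinoic acid signalling were examined, namely the receptors *Rara*, *Rarb*, *Rarg* and *Rxra*, the binding proteins *Crabp1* and *Crabp2*, the retinol receptor *Stra6*, and the enzymes *Dhrs3* and *Aldh1a2*. They were chosen by gene symbol alone, and all 9 were found. RNA-seq was measured in primary mouse embryonic fibroblasts (MEFs) on their way to induced pluripotent stem cells (iPSC), in 8 libraries that fall into 4 groups of 2 biological replicates. The groups are siNcor1 at day 3, siNcor1 at day 6, siOct4 at day 3 and siOct4 at day 6. All 4 groups share the remaining background. The MEFs were wild type, of the BL6 strain and reprogrammed at passage 2, and they carried the tet-STEMCCA lentivirus with the Oct4, Sox2, Klf4 and c-Myc transgenes together with an rtTA lentivirus. They received a 40 nM siRNA pool against *Ncor1* or *Oct4* before induction with doxycycline, in medium with FBS, LIF, ascorbic acid, the compound named chiron and an Alk5 inhibitor. Libraries of a non-targeting siRNA were not analysed here, so each difference lies between the libraries labelled siOct4 and those labelled siNcor1, and it cannot be told apart which knockdown it belongs to. Separate MEF derivations are not stated for the replicates, and p-values measure the spread between these libraries. The bulk libraries also cannot tell fewer cells of a type from less RNA per cell.

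Retinoic acid is made from vitamin A. Retinol enters cells through STRA6, is oxidised to retinaldehyde and then irreversibly to retinoic acid by ALDH1A2, while DHRS3 turns retinaldehyde back into retinol. CRABP1 and CRABP2 bind retinoic acid in the cytoplasm, and CRABP2 is known to deliver it to the nucleus. There it binds RARα, RARβ or RARγ, which sit on DNA as heterodimers with an RXR such as RXRα. Without ligand these heterodimers recruit corepressor complexes such as that built on NCOR1, and with ligand they recruit coactivators. *Rarb*, *Stra6*, *Dhrs3*, *Crabp2* and *Cyp26a1* are textbook targets of the pathway.

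The promoter windows are shown because the receptors bind short motifs, and the members carry them to different extents. RefSeq windows of 300 bases (GRCm38.p6), from 250 bases before to 50 after an annotated start, were matched by symbol for 8 of the 9 genes, in 18 windows, without *Crabp2*. The motifs searched on both strands were AGGTCA, the form GGGTCA, the form AGTTCA and the form GGTTCA, and 43.7% of 32851 windows of this length hold at least 1 of them. Among the members, 6 of the 18 windows held a motif, and these belonged to 5 genes, *Rara*, *Rarb*, *Rarg*, *Rxra* and *Stra6*. A direct repeat of these motifs with a spacing of 5 bases, written DR5, was present in the window of *Rarb* and in no other window of the members. Over all windows, 0.0974% hold a DR5. *Rarg* and *Rxra* each have another window, at chr15:102246451-102246750 and chr2:27676951-27677250, which holds none of the motifs and is not printed. The window of *Crabp1* also holds none. The stretches below therefore do not compare these genes, and they are given 5′ to 3′ on the strand of the gene. They show this repeat, the window with a motif of *Rarg* and of *Rxra*, which differed at day 6, and the window of *Crabp1*. Capitals mark the motif on either strand. They lie at chr14:16575506-16575535 (minus strand, positions −59 to −30 from the start), chr15:102257523-102257772 (minus strand), chr2:27709042-27709291 (plus strand) and chr9:54764498-54764747 (plus strand). The 250 bases before the start of *Rarb* overlap annotated exons, and whether the printed part of them does was not examined. The latter 3 stretches are outside annotated exons and directly before the start. A match is a description of letters, and binding was not measured here.
Rarb: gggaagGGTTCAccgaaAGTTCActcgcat
Rarg: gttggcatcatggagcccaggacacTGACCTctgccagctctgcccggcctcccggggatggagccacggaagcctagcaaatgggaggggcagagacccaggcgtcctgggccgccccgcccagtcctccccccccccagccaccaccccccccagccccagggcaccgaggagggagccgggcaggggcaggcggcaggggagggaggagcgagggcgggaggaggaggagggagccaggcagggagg
Rxra: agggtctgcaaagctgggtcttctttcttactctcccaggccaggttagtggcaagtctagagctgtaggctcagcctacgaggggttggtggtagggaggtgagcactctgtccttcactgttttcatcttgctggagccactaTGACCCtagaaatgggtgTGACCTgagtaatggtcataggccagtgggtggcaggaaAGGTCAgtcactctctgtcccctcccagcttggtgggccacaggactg
Crabp1: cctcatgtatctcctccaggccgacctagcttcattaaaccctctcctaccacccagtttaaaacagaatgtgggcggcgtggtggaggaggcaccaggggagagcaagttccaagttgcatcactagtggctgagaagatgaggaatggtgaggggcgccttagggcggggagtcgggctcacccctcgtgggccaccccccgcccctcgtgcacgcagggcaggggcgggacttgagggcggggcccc

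The values are log2-cpm as deposited, where cpm or CPM is the number of reads of a gene scaled to a common library total. The libraries held between 7735742 and 16445192 reads on genes, with siOct4 day 3 replicate 2 the shallowest, and 3 reads amounted to between 0.174 and 0.380 CPM. The targeted genes were examined first. *Ncor1* was at 7.08 and 7.20 log2-cpm with siNcor1 at day 3, and the libraries labelled siOct4 had 7.82 and 7.94, a difference of 0.74 ± 0.12 (SE, limma adjusted p = 0.0139). That call rested on every one of its 4 libraries, with an adjusted p between 0.0617 and 0.132 when any of them was left out. At day 6 *Ncor1* was at 7.26 and 7.28 in siNcor1 and at 7.33 and 7.13 in libraries labelled siOct4 (difference −0.04 ± 0.12, limma adjusted p = 0.815). *Pou5f1*, which encodes OCT4, went against its label at day 6, while at day 3 its difference was −0.08 ± 0.16 (limma adjusted p = 0.941). It was at 7.62 and 7.68 in siNcor1 and 7.53 and 7.62 in libraries labelled siOct4 at day 3, and at 7.55 and 7.32 against 9.45 and 8.97 at day 6, where it was 3.42-fold higher (limma adjusted p = 1.1e-04). Whether reads from the Oct4 transgene were counted on this gene is not given in the sources used here.

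Fibroblast markers were all detected, and their summed level moved with the groups. The 8 markers together reached 6234 to 6364 CPM in siNcor1 and 8746 to 10297 CPM in libraries labelled siOct4 at day 3, and 4448 to 4820 against 2456 to 2578 CPM at day 6, with none at 0. At day 6 all 8 had lower values in libraries labelled siOct4. Of these, 7 passed a limma adjusted p of 0.05, beside 18.6% of all genes passing with lower values. The change of the difference between the days was downward for all 8 and passed for 7, beside 12.9% of all genes. Over time the sum did not stand for each marker. In siNcor1, where the sum fell, 5 of the 8 passed with a rise, beside 13.8% of all genes. *Col1a1* and *Col1a2* passed with a fall there, beside 20.9%. In libraries labelled siOct4, 1 passed with a rise and 4 with a fall, beside 22.2% and 30.5%. The 6 epithelial markers summed to 54.9 to 56.7 and 17.5 to 18.9 CPM at day 3 and to 658 to 691 and 272 to 299 CPM at day 6, in siNcor1 and in libraries labelled siOct4 respectively. In the latter, 4 of the 6 passed with lower values at day 3, beside 0.692% of all genes. At day 6, 5 of the 6 did, beside 18.6%. The 6 pluripotency markers summed to 10.4 to 10.5 and 4.34 to 6.96 CPM at day 3, with *Zfp42* at 0 reads, and to 86.1 to 88.6 and 40.1 to 44.5 CPM at day 6. Of the 5 tested, 1 (*Nanog*) passed with lower values in libraries labelled siOct4 at day 3, beside 0.692% of all genes. At day 6, 2 did (*Dppa5a* and *Esrrb*), beside 18.6%, and on neither day did any pass with higher values. Markers of other cells were also measured. Keratinocyte markers summed to 5.16 to 6.62 CPM at day 3, with *Krt16* at 0. At day 6 they summed to 57.4 to 61.9 CPM in siNcor1 and 22.2 to 27.4 CPM in libraries labelled siOct4. Over both siRNAs, sums at day 3 and day 6 were 2.71 to 5.75 and 8.98 to 16.0 CPM for adipocytes, and 6.26 to 10.9 and 11.3 to 12.8 CPM for macrophages. They were 40.8 to 44.4 and 16.4 to 20.9 CPM for endothelium (with *Emcn* at 0 at day 6), and 35.6 to 93.3 and 20.1 to 28.7 CPM for muscle. Neural crest and glia had 3.53 to 4.61 and 2.54 to 3.55 CPM. None of 4 hepatocyte markers was among the genes of the table. The part of these cell type differences in the results below was not tested.

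Per length, the highest levels were those of *Crabp1* among the binding proteins and of *Rxra* and *Rarg* among the receptors. In CPM per kb of exon, *Crabp1* had the highest level of the 9 genes in each of the 4 groups, with means of 37.9 in siNcor1 day 3, 44.2 in siOct4 day 3, 286.6 in siNcor1 day 6 and 182.6 in siOct4 day 6. *Rxra* and *Rarg* came next. Their libraries overlapped in siNcor1 day 3, *Rxra* was the higher in siOct4 day 3 and siNcor1 day 6, and *Rarg* was the higher in siOct4 day 6 (means of 13.6 against 11.3 CPM per kb). *Rara* and *Crabp2* followed and overlapped in 3 of the 4 groups, then *Dhrs3* and *Aldh1a2*, and *Stra6* and *Rarb* were the lowest in every group. Of the summed per-length level of the 3 RAR genes, *Rarg* made up 62.0% to 70.2%, *Rara* 29.4% to 37.4% and *Rarb* 0.334% to 0.773% across the 8 libraries. These levels depend on the annotated exon length, which spans all transcripts of a gene, and not on the transcript used.

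**Figure D1:**
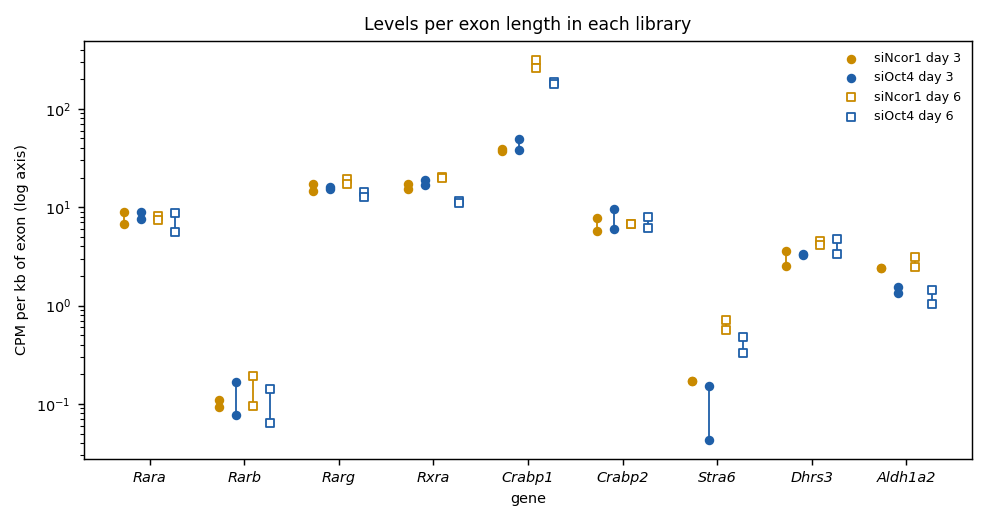
Level of each of the 9 genes in CPM per kb of exon (log axis), with 1 point per library, a line between the replicates of a group, colour for the siRNA and open squares for day 6. *Crabp1* lies above the other genes in every group, *Rarb* and *Stra6* lie lowest, and *Crabp1* and *Stra6* are higher at day 6 than at day 3.

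Between the knockdowns at day 3, none of the 8 genes tested passed the threshold of an adjusted p of 0.05 in limma, where 1.07% of all 13866 genes did (0.375% upward and 0.692% downward in libraries labelled siOct4). *Rarb*, with a mean under 1 CPM, did not enter this test. Without adjustment, 1 of the 8 genes, *Aldh1a2*, was under a limma p of 0.05, beside 10.5% of all genes. The libraries of the groups did not overlap for *Aldh1a2* and *Stra6*, 2 of 8 genes, beside 43.4% of all genes. The median difference of the 8 genes was 0.12 on the log2 scale, against −0.02 for all genes.

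Of the 8 genes tested at day 6, 4 passed the threshold with lower values in libraries labelled siOct4 than in siNcor1, and none passed with higher ones. They were *Rxra*, *Rarg*, *Crabp1* and *Aldh1a2*, which stand at different steps of the pathway. Over all genes tested, 30.7% passed the threshold at this day, split into 18.6% that were lower and 12.1% that were higher in the libraries labelled siOct4. The libraries did not overlap for these 4 genes and *Stra6*, 5 of 8 genes, beside 64.7% of all genes. The median difference of the 8 genes was −0.54, with 7 of 8 negative, against −0.03 for all genes.

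From day 3 to day 6, *Crabp1* and *Stra6* rose under both siRNAs, and *Rxra* fell in libraries labelled siOct4. *Stra6* reached the filter through its day 6 libraries, so its calls, which are part of the counts below, are not independent of the filter. In siNcor1, 2 of 8 genes passed the threshold, both upward, where 34.8% of all genes passed, 13.8% upward and 20.9% downward. In libraries labelled siOct4, 3 of 8 passed, 2 upward and 1 downward, where 52.7% of all genes passed, 22.2% upward and 30.5% downward. The libraries of the days did not overlap for 5 of 8 genes in siNcor1 (73.1% of all genes) and for 5 of 8 in those labelled siOct4 (74.8%). Both time courses and both knockdown comparisons use the same libraries, so they are not independent of each other. The median change of the 8 genes was 0.26 in siNcor1 and −0.16 in libraries labelled siOct4, against −0.07 and −0.08 for all genes.

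A test of the change of the knockdown difference from day 3 to day 6 was passed by 2 of the 8 genes, *Rxra* and *Crabp1*, both toward lower values in libraries labelled siOct4. Of all genes, 20.7% passed this test, 12.9% in that direction and 7.77% in the other.

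**Figure D2:**
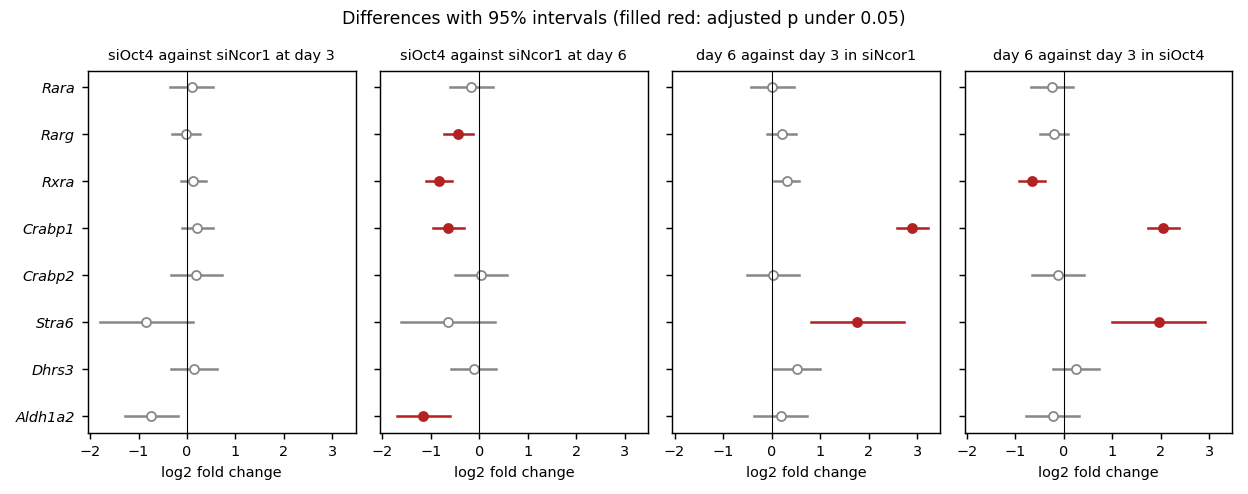
Log2 fold change with 95% interval of the 8 genes tested, in 4 panels for the knockdown comparisons at day 3 and day 6 and for day 6 against day 3 in each knockdown, with filled red points for an adjusted p under 0.05. At day 6 *Rarg*, *Rxra*, *Crabp1* and *Aldh1a2* lie left of 0 with filled points, and *Crabp1* and *Stra6* lie right of 0 in both time courses.

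Among the receptors, *Rxra*, at chr2:27676440-27762957 on the plus strand, encodes the shared partner of the RARs. Its libraries were at 6.56 and 6.39 log2-cpm in siNcor1 day 3, 6.52 and 6.70 in siOct4 day 3, 6.80 and 6.77 in siNcor1 day 6, and 5.99 and 5.92 in siOct4 day 6. Both siOct4 day 6 libraries were below all 6 others, and the day 3 groups overlapped. At day 6 *Rxra* was 1.78-fold lower in the libraries labelled siOct4 (log2 difference −0.83 ± 0.12, SE, 95% interval −1.09 to −0.57, limma adjusted p = 7.5e-04). At day 3 the difference was 0.13 ± 0.12 (limma adjusted p = 0.820). The change between the days was −0.96 ± 0.17 (limma adjusted p = 0.00294). Within the libraries labelled siOct4, *Rxra* fell 1.58-fold from day 3 to day 6 (−0.66 ± 0.12, limma adjusted p = 7.4e-04). In siNcor1 the value was 0.31 ± 0.12 and did not pass the threshold (limma adjusted p = 0.0646), although it did without either siOct4 day 6 library (0.0363 for both), which share the estimate of the spread. These 3 calls for *Rxra* were kept when any single library was left out.

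*Rarg*, at chr15:102234938-102257517 on the minus strand, encodes RARγ, and was the RAR gene with the most reads per length here. It was at 6.21 and 5.95 log2-cpm in siNcor1 day 3, 6.03 and 6.08 in siOct4 day 3, 6.38 and 6.19 in siNcor1 day 6, and 5.94 and 5.77 in siOct4 day 6. The day 3 groups overlapped, and the siOct4 day 6 libraries were the lowest of the 8. At day 6 the difference was −0.43 ± 0.13 (1.35-fold lower, 95% interval −0.72 to −0.14, limma adjusted p = 0.0307). This call was not kept without siNcor1 day 6 replicate 1 (limma adjusted p = 0.198), siNcor1 day 6 replicate 2 (0.0762) or siOct4 day 6 replicate 2 (0.0863). The day 6 difference minus that at day 3 was −0.41 ± 0.19 and did not pass (limma adjusted p = 0.146).

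*Rara*, at chr11:98927818-98974942 on the plus strand, encodes RARα. Its libraries were at 5.28 and 4.89 log2-cpm in siNcor1 day 3, 5.07 and 5.29 in siOct4 day 3, 5.17 and 5.03 in siNcor1 day 6, and 5.25 and 4.62 in siOct4 day 6. All 4 groups overlapped, and the widest spread was between the siOct4 day 6 replicates. At day 6 the difference was −0.16, with a 95% interval of −0.60 to 0.28 (limma adjusted p = 0.571). The change from day 3 to day 6 in libraries labelled siOct4 was −0.24 ± 0.20 (limma adjusted p = 0.334), but −0.55 with an adjusted p of 0.0207 without siOct4 day 6 replicate 1. A small nuclear RNA gene, *Gm22061*, overlaps *Rara*.

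*Rarb*, at chr14:16430839-16819156 on the minus strand, encodes RARβ and carries the DR5 printed above. It was near the limit of detection, with 8 and 10 reads in siNcor1 day 3, 6 and 7 in siOct4 day 3, 6 and 12 in siNcor1 day 6, and 7 and 4 in siOct4 day 6. These reads amount to between 0.340 and 1.01 CPM, and no group stood apart. The 95% Poisson intervals of the group levels, which cover counting error only, were 0.319 to 0.852 CPM, 0.305 to 0.981 CPM, 0.444 to 1.19 CPM and 0.258 to 0.926 CPM in the same order. In a fit without the filter on low values, the day 6 difference was −0.40 with a 95% interval of −1.49 to 0.70 (limma adjusted p = 0.618), and a difference was not detectable at this depth. *Top2b* on the opposite strand and *Gm48162* overlap *Rarb*, and the strand setting of the counting is not given in the sources used here, so their reads cannot be told apart.

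**Figure D3:**
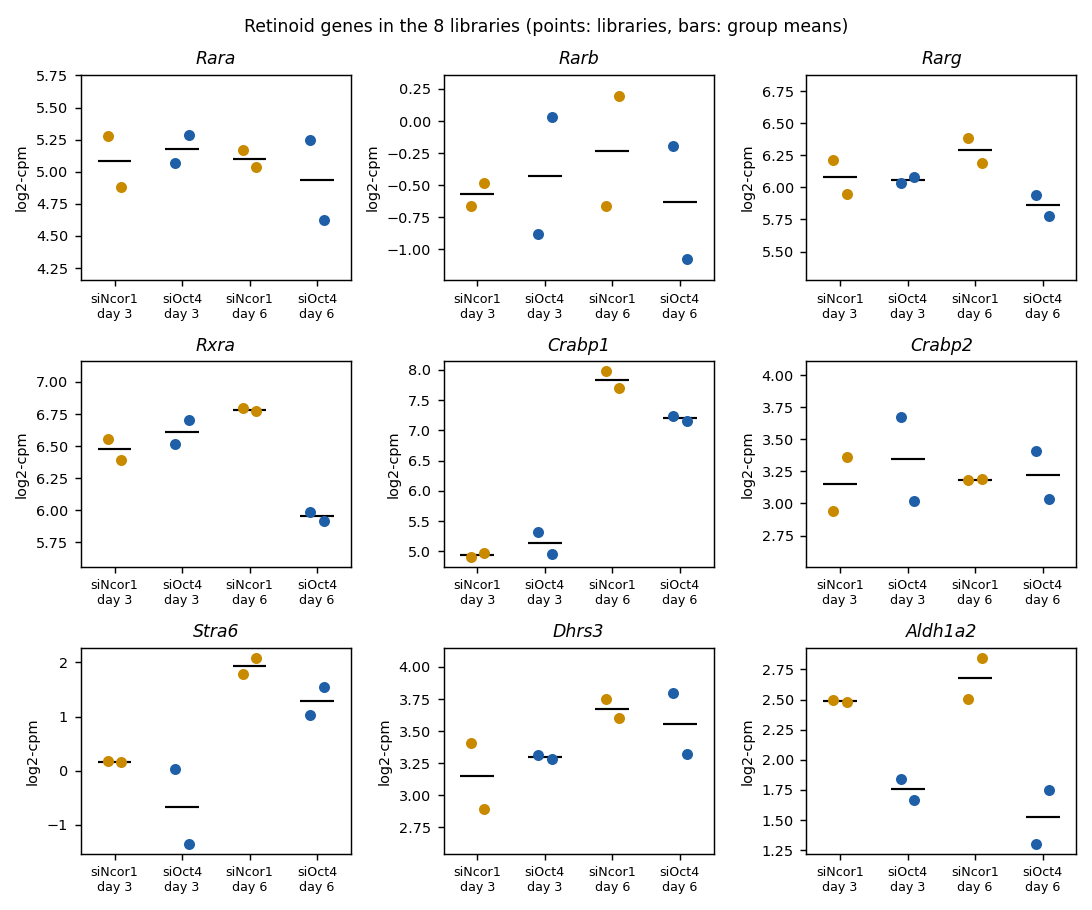
Deposited log2-cpm of the 9 genes in the 8 libraries, with 1 panel per gene, 1 point per library, bars at group means and a vertical scale for each gene. The siOct4 day 6 points of *Rxra* lie below all others, *Crabp1* and *Stra6* are higher at day 6, both groups labelled siOct4 lie below both siNcor1 groups for *Aldh1a2*, and the groups of *Rara*, *Rarb* and *Crabp2* overlap.

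Among the binding proteins, *Crabp1*, at chr9:54764748-54773110 on the plus strand, had the largest change over time of the 8 genes tested. It was at 29.7 and 31.1 CPM in siNcor1 day 3, 40.0 and 30.9 CPM in siOct4 day 3, 252.9 and 206.7 CPM in siNcor1 day 6, and 150.3 and 142.7 CPM in siOct4 day 6. All day 6 libraries were above all day 3 libraries, and within day 6 both siNcor1 libraries were above both labelled siOct4. From day 3 to day 6 it rose 7.49-fold in siNcor1 (log2 change 2.90 ± 0.15, limma adjusted p = 3.6e-07) and 4.16-fold in libraries labelled siOct4 (2.06 ± 0.15, limma adjusted p = 1.0e-06). Both calls were kept when any single library was left out. At day 6 it was 1.56-fold lower in the libraries labelled siOct4 (−0.64 ± 0.15, 95% interval −0.96 to −0.32, limma adjusted p = 0.0075), a call that was not kept without siNcor1 day 6 replicate 1 (−0.50, limma adjusted p = 0.0777). The day 3 difference was 0.21 (limma adjusted p = 0.740), and the change between the days was −0.85 ± 0.21 (limma adjusted p = 0.0156). That last call was not kept without siNcor1 day 3 replicate 1 (limma adjusted p = 0.0519), siNcor1 day 3 replicate 2 (0.0611), siNcor1 day 6 replicate 1 (0.0697) or siOct4 day 3 replicate 1 (0.0607).

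*Crabp2*, at chr3:87948666-87953376 on the plus strand, did not follow its paralogue. It was at 7.55 and 10.2 CPM in siNcor1 day 3, 12.6 and 7.97 CPM in siOct4 day 3, 8.92 and 8.99 CPM in siNcor1 day 6, and 10.5 and 8.06 CPM in siOct4 day 6. All 4 groups overlapped. The day 6 difference was 0.04 with a 95% interval of −0.50 to 0.57 (limma adjusted p = 0.928), and the changes over time were 0.03 in siNcor1 and −0.12 in libraries labelled siOct4 (limma adjusted p = 0.932 and 0.689). As a ratio of per-length levels, *Crabp1* exceeded *Crabp2* by 5.06 to 6.49 at day 3, by 37.9 to 46.7 in siNcor1 day 6 and by 23.7 to 29.2 in siOct4 day 6.

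*Stra6*, at chr9:58063788-58153996 on the plus strand, encodes the cell surface receptor through which retinol is taken up. It had 16 and 17 reads in siNcor1 day 3, 13 and 2 in siOct4 day 3, 40 and 49 in siNcor1 day 6, and 18 and 33 in siOct4 day 6. These are 0.990 and 0.986 CPM, 0.881 and 0.253 CPM, 3.30 and 4.12 CPM, and 1.90 and 2.80 CPM. All day 3 libraries were under 1 CPM, so *Stra6* reached the filter at a mean of 1 CPM through its day 6 libraries. Its calls over time are therefore not independent of the filter. Every day 6 library was above every day 3 library, and on each day both siNcor1 libraries were above both labelled siOct4. It rose 3.40-fold in siNcor1 (1.77 ± 0.44, limma adjusted p = 0.00917) and 3.89-fold in libraries labelled siOct4 (1.96 ± 0.44, limma adjusted p = 0.00279), on a log scale with an added constant that understates changes of low genes. The rise in siNcor1 was not kept without siNcor1 day 3 replicate 1 (limma adjusted p = 0.0516), siNcor1 day 3 replicate 2 (0.0638) or siNcor1 day 6 replicate 2 (0.0678), and that in libraries labelled siOct4 was kept in all 8 such fits, although its size was 1.27 without siOct4 day 3 replicate 2, which held 2 reads, and 2.65 without siOct4 day 3 replicate 1. Between the knockdowns the difference was −0.84 at day 3 and −0.64 at day 6, and neither passed (limma adjusted p = 0.570 and 0.289, the latter with a 95% interval of −1.60 to 0.31). *Ccdc33*, on the opposite strand, and *Gm16131* overlap *Stra6*, and their reads cannot be told apart from it without the strand setting.

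Of the enzymes, *Aldh1a2*, at chr9:71215789-71296243 on the plus strand, makes retinoic acid from retinaldehyde. It was at 2.50 and 2.48 log2-cpm in siNcor1 day 3, 1.84 and 1.67 in siOct4 day 3, 2.50 and 2.85 in siNcor1 day 6, and 1.30 and 1.75 in siOct4 day 6. The 4 libraries labelled siOct4 were below the 4 siNcor1 libraries on both days. At day 6 the difference was −1.15 ± 0.25 (2.22-fold lower, 95% interval −1.69 to −0.61, limma adjusted p = 0.00563), a call that was not kept without siNcor1 day 6 replicate 2 (−0.98, limma adjusted p = 0.0737). At day 3 it was −0.73 ± 0.25 and did not pass (limma adjusted p = 0.244). The change of the difference between the days was −0.42 ± 0.35 (limma adjusted p = 0.424), and from day 3 to day 6 the values were 0.19 in siNcor1 and −0.23 in libraries labelled siOct4 (limma adjusted p = 0.594 and 0.454). The pseudogene *Gm48124* overlaps *Aldh1a2*.

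*Dhrs3*, at chr4:144892827-144928209 on the plus strand, encodes the reductase that returns retinaldehyde to retinol. Its libraries were at 10.5 and 7.31 CPM in siNcor1 day 3, 9.82 and 9.62 CPM in siOct4 day 3, 13.3 and 12.0 CPM in siNcor1 day 6, and 13.7 and 9.85 CPM in siOct4 day 6. The knockdowns overlapped on both days. The day 6 difference was −0.12 with a 95% interval of −0.59 to 0.35 (limma adjusted p = 0.709). Over time it changed by 0.53 ± 0.22 in siNcor1 (limma adjusted p = 0.0802, but 0.0470 without siNcor1 day 3 replicate 1 and 0.0381 or 0.0363 without siOct4 day 6 replicate 1 or 2) and 0.26 in libraries labelled siOct4 (limma adjusted p = 0.342). The per-length ratio of *Dhrs3* to *Aldh1a2* was 1.04 to 1.86 in the siNcor1 libraries and 2.20 to 4.57 in those labelled siOct4.

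The other genes of retinoid metabolism moved in both directions. Of 27 listed, 19 were in the table and 14 were tested. At day 3 none passed in limma. At day 6, 3 passed with higher and 3 with lower values in libraries labelled siOct4, with a list median of 0.03. Over all genes, 12.1% passed with higher and 18.6% with lower values, and the median was −0.03. *Fabp5*, a fatty acid binding protein that can also carry retinoic acid, was at 44.4 and 41.2 CPM in siNcor1 day 6 and at 93.9 and 106.8 CPM in siOct4 day 6, a difference of 1.23 ± 0.14 (limma adjusted p = 3.6e-04) that was kept when any library was left out. The other genes that were higher were *Adh5* (0.65), not kept without siNcor1 day 6 replicate 2 (adjusted p = 0.0649), and the receptor *Rxrb* (0.44), not kept without that library (0.254) or siOct4 day 6 replicate 1 (0.0731). The lower genes were *Rdh10* (−0.82), which oxidises retinol, *Adh7* (−0.67) and *Cyp26b1* (−0.64), which degrades retinoic acid. The call for *Cyp26b1* was not kept without siNcor1 day 6 replicate 1 (0.0531), and those for *Rdh10* and *Adh7* were not kept without siNcor1 day 6 replicate 2 (0.149 and 0.110) or siOct4 day 6 replicate 1 (0.0663 for both).

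Over time, 3 of the 14 metabolic genes passed with a rise and 2 with a fall in siNcor1, with a list median of 0.12. In libraries labelled siOct4, 7 passed with a rise and 3 with a fall, with a list median of 0.43. Over all genes 13.8% rose and 20.9% fell in siNcor1, and 22.2% rose and 30.5% fell in libraries labelled siOct4. In siNcor1 the rises were in *Adh7* (1.56), *Aldh1a3* (1.15) and *Aldh1a1* (0.70), and the falls in *Dhrs9* (−1.28) and *Fabp5* (−0.45). Of these 5 calls, that for *Adh7* was kept in all 8 fits with 1 library left out. Each of the others was lost without siNcor1 day 3 replicate 2 (adjusted p = 0.125 for *Aldh1a3*, 0.104 for *Aldh1a1*, 0.209 for *Dhrs9* and 0.265 for *Fabp5*) and without siNcor1 day 6 replicate 2 (0.119, 0.103, 0.132 and 0.155). A further loss came for 3 of them without siNcor1 day 6 replicate 1 (0.151 for *Aldh1a3*, 0.147 for *Dhrs9* and 0.0855 for *Fabp5*) and for 2 of them without siNcor1 day 3 replicate 1 (0.127 for *Aldh1a3*, 0.120 for *Dhrs9*), and *Dhrs9* without either siOct4 day 3 library (0.0575 and 0.0582). In libraries labelled siOct4, *Aldh1a3* (1.83), *Aldh1a1* (1.34), *Adh5* (1.16) and *Adh7* (1.12) rose most, and *Dhrs9* (−2.18), *Cyp26b1* (−1.05) and *Rdh10* (−0.85) fell. These 7 calls were kept in all 8 such fits, with *Dhrs9* at −1.49 without siOct4 day 6 replicate 1 and at −2.87 without siOct4 day 6 replicate 2, and *Rdh10* at −0.54 without the former. *Cyp26a1*, a classic target that degrades retinoic acid, had 0 to 6 reads per library and was not tested.

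Of 17 listed retinoic acid targets, 16 were in the table and 13 were tested, none of them passing at day 3 in limma. At day 6, 2 passed with higher and 4 with lower values in libraries labelled siOct4, with a list median of −0.31. Over all genes these shares were the same 12.1% higher and 18.6% lower. *Cdx1*, a homeobox gene, had 0 reads in all 4 day 3 libraries, 37 and 46 reads in siNcor1 day 6 and 10 and 6 reads in siOct4 day 6. Its means at day 6 were 3.46 CPM in siNcor1 and 0.783 CPM in libraries labelled siOct4. *Cdx1* reached the filter at a mean of 1 CPM only through siNcor1 day 6, so its calls are not independent of the filter. Against a floor of 3 reads per library, it was at least 19.3-fold higher at day 6 in siNcor1 and at least 2.69-fold higher in libraries labelled siOct4, and at day 6 the difference between them was −2.03 ± 0.53 (limma adjusted p = 0.0145). That difference was not kept without siNcor1 day 6 replicate 1 (0.0663), siNcor1 day 6 replicate 2 (0.143) or siOct4 day 6 replicate 2 (0.0818). *Meis2* (−0.62), *Nr2f2* (−0.58) and *Nrip1* (−0.43) were also lower. Without siNcor1 day 6 replicate 2 their adjusted p-values were 0.0641, 0.0726 and 0.150, and *Nrip1* was also lost without siNcor1 day 6 replicate 1 (0.104) or siOct4 day 6 replicate 1 (0.0767). *Ret* (1.43) and *Tgm2* (0.73) were higher, and both were lost without siNcor1 day 6 replicate 2 (0.103 and 0.175) or siOct4 day 6 replicate 1 (0.0888 and 0.172), and *Tgm2* also without siNcor1 day 6 replicate 1 (0.0623). Over time, 1 target passed with a rise and 2 with a fall in siNcor1, with a list median of −0.12, beside 13.8% up and 20.9% down of all genes. In libraries labelled siOct4, 1 passed with a rise and 5 with a fall, with a list median of −0.17, beside 22.2% up and 30.5% down. *Cdx1* was the gene that passed with a rise in both. The falls of *Rarres1* and *Nrip1* in libraries labelled siOct4 were kept when any single library was left out. The other falls over time, under either siRNA, were not.

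**Figure D4:**
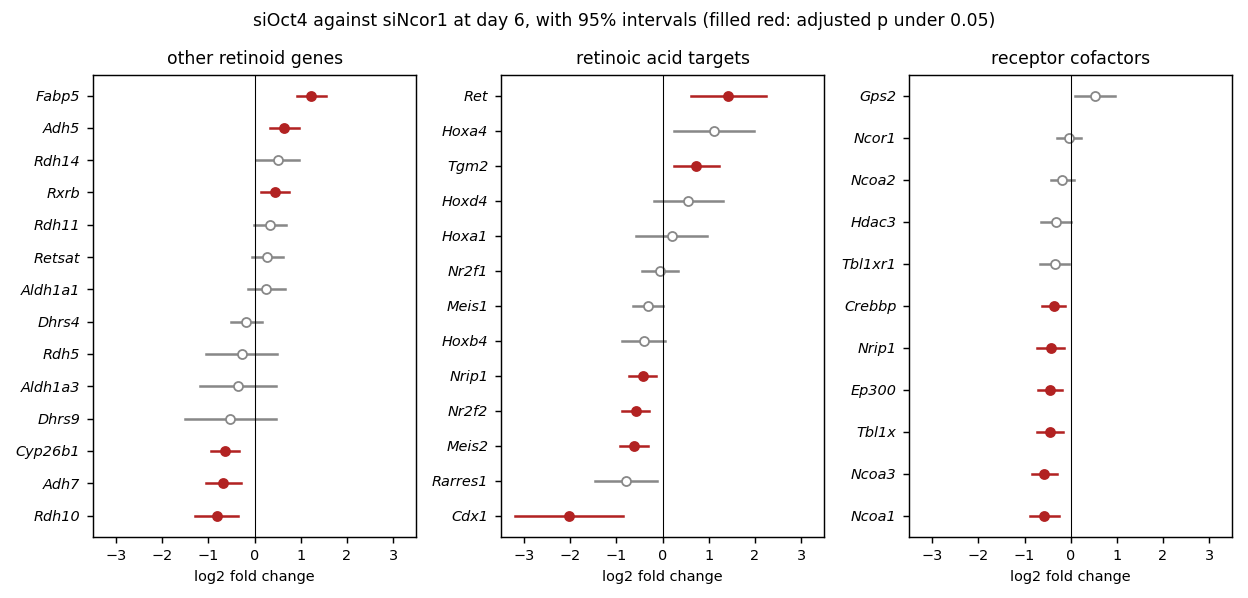
Log2 fold change with 95% interval, libraries labelled siOct4 against siNcor1 at day 6, for the tested genes of 3 lists (other retinoid genes, retinoic acid targets and receptor cofactors), sorted within each list, with filled red points for an adjusted p under 0.05. The first 2 lists hold filled points on both sides of 0, while the 6 filled cofactors lie left of 0.

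The genes whose log2-cpm followed each member most closely over the 8 libraries are given as a description, since the points share groups and depth. For *Rxra* they were *Ssc5d* (Pearson r = 0.993) and *Col6a1* (0.991), a collagen of the extracellular matrix. *Rarg* was followed by *Hdac5* and *Galns* (0.965 for both) and *Rara* by *Tle3* (0.962) and *Gm38245* (0.941). *Crabp1* was followed by *Creg1* and *Lad1* (0.989 for both), and *Crabp2* less closely by *Cd274* (0.877) and *Efhd2* (0.815). For *Stra6* they were *Foxl1* (0.989) and *Cadps* (0.984), for *Dhrs3* they were *Tbc1d17* (0.971) and *Rhbdf2* (0.970), and for *Aldh1a2* they were *Tmem26* (0.985) and *Elmod1* (0.969).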

How the data were processed

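RNA was extracted from reprogramming MEFs, and 200 ng of ribosome-depleted total RNA entered each library. The submitters' processing notes name STAR 2.5.2b, edgeR 3.20.9 and the builds mm10 and GRCm38. The authors deposited log2-cpm values computed with edgeR. The tool and strand setting for counting reads on genes are not given in the sources used here. On the linear scale, after subtraction of the lowest value (−2.87 on the log2 scale, which stands for 0 reads), 100% of values were whole multiples of 1 read within 0.1 read, which gave reads per gene and CPM. Counts of the 2 replicates of a group were compared by chi-square, which came to 9.38 to 22.0 for each degree of freedom, so none was a repeat deposit. *Gm26917* took 15.5% to 16.6% of reads at day 3 and 20.3% to 29.1% at day 6.

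Of 18990 genes, 18969 matched GENCODE M21 (GRCm38) by identifier. Tests with limma 3.58.1 (R 4.3.3) took the deposited log2 values of the 13866 genes averaging 1 CPM or more, with the 4 groups fitted together, a variance trend and Benjamini-Hochberg adjustment at 0.05. No count model was used as the main test. Alternatives changed the scaling, filter, pseudocount, variance trend and groups fitted, added a replicate block, used voom on the recovered reads, or left out each library. In simulated reads for the day 6 comparison, with 13866 genes, limma recovered 85.7% of 63 genes given a log2 change of 2, 60.3% of 68 given 1 and 1.45% of 69 given 0.5. Of the 104 genes called in the simulation, 7.69% had been given no change. Only the genes named were changed, while 30.7% of all genes passed at day 6 in the data. That share affects the adjustment, so these values do not give the recovery in the data.

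Named are the 9 members, the targeted genes, for each other list and comparison at most the 4 called genes with the largest change in each direction, and for each member the 2 genes with the highest Pearson r. The members, lists and tests were chosen with earlier results of these data known. Sequences come from RefSeq (GRCm38.p6). From the lists, 2 genes were left out and are not reported here, and list counts and medians are over the remaining genes.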

Additional observations from a re-analysis of the deposited data

Results flagged for a closer look

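In limma, 20.7% of all 13866 genes passed the test of a change of the knockdown difference from day 3 to day 6. The difference between the libraries labelled siOct4 and siNcor1 changed by that test for 9 of the genes described. They were 2 of 8 members and 3 of 14 other retinoid genes. The rest were 2 of 13 targets and 2 of 11 cofactors, with *Nrip1* in both lists, and *Pou5f1*. Among the members these were *Rxra* (−0.96 on the log2 scale, adjusted p = 0.00294) and *Crabp1* (−0.85, adjusted p = 0.0156). Among the other retinoid genes they were *Fabp5* (1.01, adjusted p = 0.00600), *Cyp26b1* (−1.17, adjusted p = 0.00223) and *Adh5* (0.78, adjusted p = 0.0207). Among targets and cofactors they were *Nr2f2* (−0.59, adjusted p = 0.0474), *Nrip1* (−0.64, adjusted p = 0.0321) and *Ncor1* (−0.79, adjusted p = 0.00824). The other targeted gene, *Pou5f1*, had the largest change of the 9 (1.85, adjusted p = 6.4e-04). With any single library left out, the calls for *Rxra*, *Fabp5*, *Cyp26b1*, *Ncor1* and *Pou5f1* were kept. Without the named library the highest adjusted p was 0.0697 for *Crabp1* (siNcor1 day 6 replicate 1), 0.105 for *Adh5* (siNcor1 day 3 replicate 2), 0.173 for *Nr2f2* (siOct4 day 3 replicate 1) and 0.148 for *Nrip1* (siOct4 day 3 replicate 2). Calls were lost in 4, 4, 7 and 5 of the 8 such fits for these 4 genes. All 4 calls were also lost without the variance trend, and that for *Nr2f2* with totals excluding the top gene or no filter. Of all genes, 12.9% passed the test of this change toward lower and 7.77% toward higher values. Fibroblast markers passed it toward lower values for 7 of 8, and epithelial markers for 3 of 6 toward lower and 3 toward higher values. Their part was not tested.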

How the results depend on the processing

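Of 1935 log2 fold changes recomputed for the members and the called genes of the other lists, 28 changed sign, all of them of members that had not passed the threshold, 6 under other settings and 22 with a library left out. Under settings other than leaving out a library, 1042 kept their sign and side of the threshold, 47 lost and 8 gained the call. More calls than this were lost with a library left out. With quantile normalization, the changes over time became −0.084 for *Crabp2* and −0.0053 for *Aldh1a2* in siNcor1 and 0.037 for *Rarg* in libraries labelled siOct4, and the change between the days became −0.12 for *Stra6* (−0.13 with a pseudocount of 1 CPM). With totals excluding the top gene, *Crabp2* in libraries labelled siOct4 over time became 0.010. With 1 library left out, day 3 differences ranged from −0.10 to 0.29 for *Rara*, −0.15 to 0.11 for *Rarg*, −0.13 to 0.52 for *Crabp2* and −0.10 to 0.40 for *Dhrs3*. Those at day 6 ranged from −0.48 to 0.15 for *Rara*, −0.15 to 0.22 for *Crabp2* and −0.36 to 0.12 for *Dhrs3*. Over time, *Rara* ranged from −0.18 to 0.21 in siNcor1 and −0.55 to 0.072 in libraries labelled siOct4, and *Crabp2* from −0.18 to 0.24 and −0.45 to 0.20. The change between the days ranged from −0.57 to 0.054 for *Rara*, −0.48 to 0.17 for *Crabp2* and −0.50 to 0.88 for *Stra6*. The number of members called from day 3 to day 6 in siNcor1 was 2, and it was 4 with quantile normalization, totals excluding the top gene or only the groups compared, and 1 at a mean of at least 10 CPM. For the change between the days it was 2, and 1 without a variance trend (*Crabp1*, adjusted p = 0.0588). *Rxra* in siNcor1 over time passed under 4 of 11 settings (adjusted p down to 0.00908) and *Dhrs3* under 3 (down to 0.0384). *Rarg* at day 6 did not pass without the trend (0.0775) or with only the groups compared (0.0642). At day 6, 4 of 6 calls of the other retinoid genes, 3 of 6 of the targets and 3 of 6 of the cofactors were kept under all of these settings. Those lost were *Rxrb*, *Adh7*, *Tgm2*, *Nrip1*, *Tbl1x* and *Crebbp* without the trend (all but *Adh7* and *Tgm2* also with only the groups compared, and *Crebbp* with median centring or quantile normalization), and *Cdx1* with totals excluding the top gene. *Ncor1* at day 3 was lost without the trend. With 1 library left out, members called numbered 0 at day 3, 2 to 4 at day 6, 1 to 4 and 3 to 4 over time in siNcor1 and in libraries labelled siOct4, and 1 to 2 for the change between the days. Over all genes, calls at day 3 numbered 148, but 43 without the trend and 81 at a mean of at least 10 CPM, and 3 to 375 with 1 library left out. The other comparisons then gave 1398 to 4669 (day 6, 4251 with all libraries), 2360 to 5954 and 5397 to 7374 (over time, 4819 and 7312) and 1009 to 3667 (2867) calls. With totals excluding the top gene, the median change of all genes over time in libraries labelled siOct4 moved from −0.08 to 0.06 and the share of upward calls from 42.1% to 52.5%. At day 3, 35.1% of calls were upward, and 55.1% with voom. Replicate numbers are shared between groups in the labels, but same-numbered libraries correlated at −0.04 to 0.28 in their deviations, over 0.1 for 3 of 6 pairs of groups and not for the others, so the numbers were not taken to pair the libraries. With a replicate block, 0, 4, 3, 3 and 2 members and 222, 4698, 5218, 7570 and 3395 genes were called, in the order day 3, day 6, siNcor1 and siOct4 over time, and the change between the days. The cause of these shifts was not tested. With 2 libraries a group and 4 to 12 reads on *Rarb*, small differences were not detectable.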

Other observations

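The cofactors of the retinoid receptors form a list of 11 genes, all of them tested. It holds the corepressor complex of *Ncor1*, *Hdac3*, *Tbl1x*, *Tbl1xr1* and *Gps2*, the coactivators *Ncoa1*, *Ncoa2*, *Ncoa3*, *Ep300* and *Crebbp*, and *Nrip1*, which is also in the target list. At day 3, 1 of 11 passed in limma, the targeted gene *Ncor1*. At day 6, 6 passed with lower values in libraries labelled siOct4 and none with higher ones, with a list median of −0.37. Over all genes, 18.6% passed with lower and 12.1% with higher values, and the median was −0.03. The calls with the largest differences were *Ncoa1* (−0.58), *Ncoa3* (−0.57), *Tbl1x* (−0.45) and *Ep300* (−0.45). None of the 6 calls was kept in all 8 fits with 1 library left out. Without siNcor1 day 6 replicate 2 the adjusted p was 0.0772, 0.0688, 0.159 and 0.129 for these 4 genes, without siNcor1 day 6 replicate 1 it was 0.0636 for *Ncoa1*, 0.0696 for *Tbl1x* and 0.0564 for *Ep300*, and without siOct4 day 6 replicate 1 it was 0.0965 for *Tbl1x*.

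From day 3 to day 6, 5 of the 11 passed with a fall in siNcor1, with a list median of −0.33. Of these calls, that for *Ncoa2* was kept when any single library was left out, and the others were not. Under the settings other than leaving out a library, 2 of the 5 calls were kept throughout. In libraries labelled siOct4, 10 passed with a fall and *Gps2* was the gene that did not pass, with a list median of −0.65. The largest falls in libraries labelled siOct4 were in *Nrip1* (−1.03), *Tbl1x* (−0.85), *Ncoa1* (−0.82) and *Crebbp* (−0.77), and 9 of the 10 calls were kept when any single library was left out. Over all genes, 20.9% fell in siNcor1, with a median change of −0.07, and 30.5% fell in libraries labelled siOct4, with a median of −0.08.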
